A study of Sus scrofa with 9 samples.

Results

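Hypoxia-inducible factor genes and their targets were examined in porcine hearts donated after circulatory death (DCD). The set was written as 10 gene symbols: the oxygen-regulated factor subunits HIF1A and EPAS1, the prolyl hydroxylases EGLN1 and EGLN3, and the targets VEGFA, ADM, SLC2A1, BNIP3, DDIT4 and ANKRD37. Members were found by symbol among the 25149 genes of the table. Of the 10, 8 were listed, 7 passed the filter on low values and could be tested, and ANKRD37 did not pass it. SLC2A1 and DDIT4 were not analysed here.

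The 9 hearts came from female American Yorkshire pigs aged 4 to 6 months, 1 apex biopsy per heart. All hearts had 15 min of warm ischemia, and all were biopsied after 2 h of normothermic machine perfusion (NMP) on a bench circuit primed with donor blood. In NRP + HOPE 24 h (pigs 27, 28 and 30), normothermic regional perfusion (NRP) first circulated warm oxygenated blood in the donor for 60 min, and the heart then had 24 h of hypothermic oxygenated perfusion (HOPE) at 8 °C. In NRP + SCS 2 h (pigs 24, 25 and 29), NRP was followed by 2 h of static cold storage (SCS) at 4 °C without perfusion. In No NRP + HOPE 2 h (pigs 31, 33 and 34), the heart was procured directly and had 2 h of HOPE at 8 °C. The groups are called HOPE 24 h, SCS 2 h and HOPE 2 h below, and only HOPE 2 h was without NRP. Storage method, duration, temperature and NRP therefore differ between groups together, and their contributions cannot be told apart. No biopsy analysed here was taken before ischemia or before NMP, so each value is a level at the end of NMP and not a change from baseline.

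HIF-1α and HIF-2α, encoded by HIF1A and EPAS1, are transcription factor subunits made continuously and destroyed when oxygen is plentiful. Prolyl hydroxylases such as those encoded by EGLN1 and EGLN3 use oxygen to mark them for the von Hippel-Lindau ubiquitin ligase, so in hypoxia the subunits persist, pair with ARNT and switch on genes of glycolysis, vessel growth and survival. EGLN3 is itself a target and closes a feedback loop. Much of this control acts on protein, which these RNA data do not measure.

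Expression was given in TPM, the share of a gene among all transcripts of a heart after scaling for gene length, so that levels may be compared between genes. These values do not tell how deeply a heart was sequenced. The biopsies are labelled as cardiomyocytes, but they are tissue: the 9 cardiomyocyte markers found summed to 31460 to 60133 TPM per heart and the 10 endothelial markers to 434 to 969 TPM. In such bulk tissue, fewer cells of a type and less RNA per cell cannot be told apart. The 13 mitochondrially encoded protein-coding genes took 38.2% to 55.3% of TPM. A median-of-ratios factor, which compares each heart with the typical heart over all genes, ranged from 0.728 (pig 27) and 0.771 (pig 31) to 1.33 (pig 30). Those hearts stand apart, so the main results below are also given after dividing by that factor (scaled values).

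At the end of NMP, EPAS1 was the most abundant member and the hydroxylases were among the least. The mean over 9 hearts was 199 TPM for EPAS1, 76.5 TPM for HIF1A, 71.9 TPM for VEGFA, 47.9 TPM for ADM, 36.02 TPM for BNIP3, 9.32 TPM for EGLN3, 9.12 TPM for EGLN1 and 0.954 TPM for ANKRD37. EPAS1 exceeded HIF1A in 9 of 9 hearts, and BNIP3 exceeded EGLN3 in 9 of 9. HIF1A exceeded VEGFA in 6 of 9 hearts and EGLN3 exceeded EGLN1 in 4 of 9, so the order within these pairs of neighbours was not the same in every heart. Between hearts, EPAS1 varied least, 2.08-fold from lowest to highest, and among the tested members EGLN3 varied most, 6.08-fold.

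**Figure D1:**
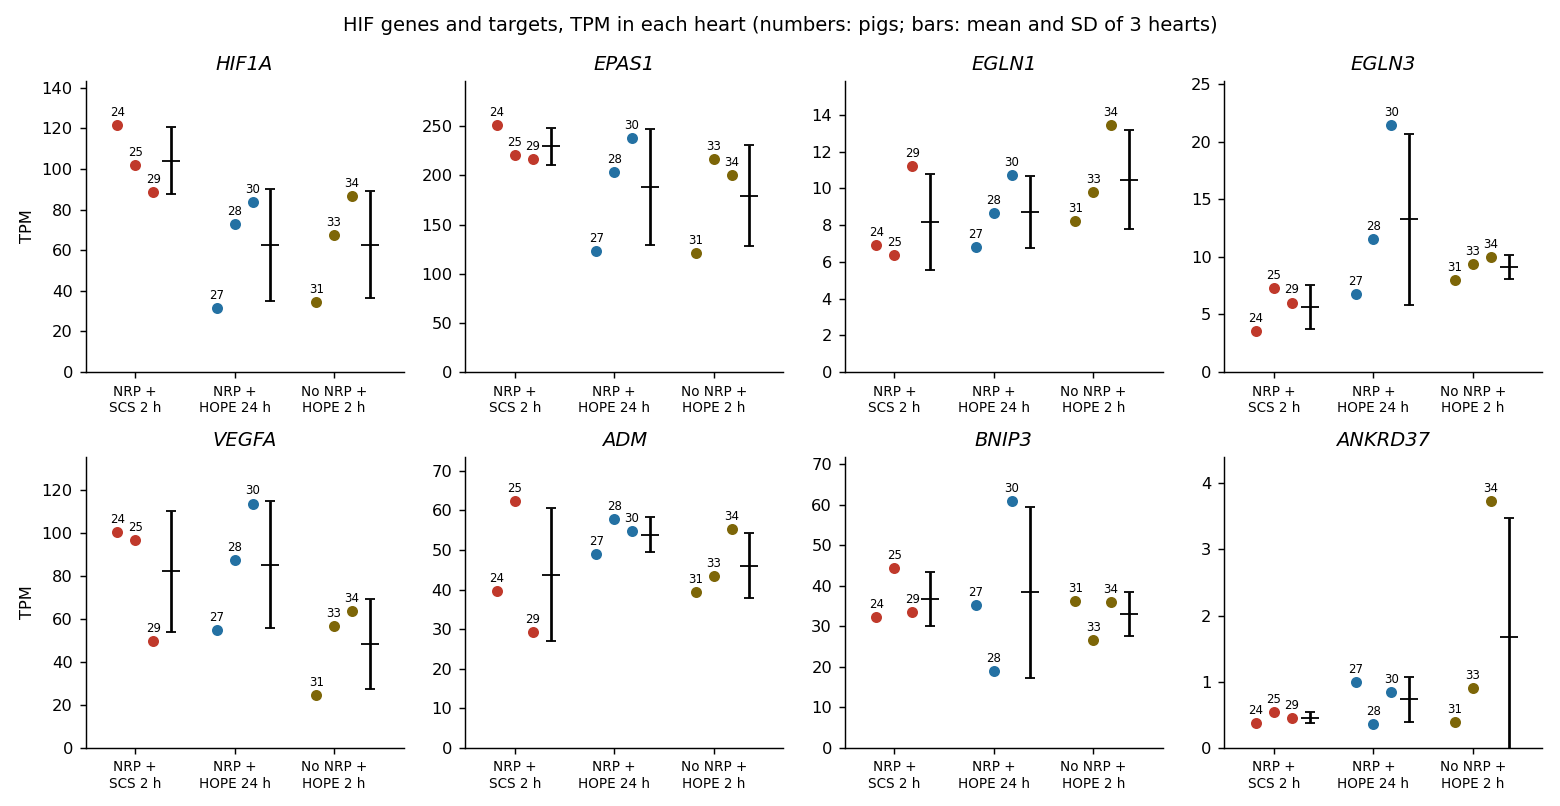
TPM of the 8 listed members (vertical axes, linear and starting at 0) in each of the 9 hearts, by group, with pig numbers beside the points and the mean and SD of 3 hearts as black bars (the lower bar of ANKRD37 is cut at 0). HIF1A was highest in the 3 SCS 2 h hearts, at 88.8 to 121 TPM, and EGLN3 was highest in pig 30, at 21.4 TPM.

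Tests used limma on log2(TPM + 1), two-sided, with Benjamini-Hochberg adjustment over the 11782 genes tested, and a gene was called where its adjusted p was under 0.05 and its log2 fold change lay beyond 1 in either direction. By this rule 0 of the 7 tested members were called in any comparison. The rule called few genes of any kind: 0.0255% of genes tested in HOPE 24 h against SCS 2 h, 0.0509% in HOPE 2 h against SCS 2 h, and 0.0509% in HOPE 24 h against HOPE 2 h. At an unadjusted p under 0.05, 1, 0 and 0 members passed in these 3 comparisons, against 4.97%, 7.22% and 6.01% of all genes. The comparisons share hearts and are not independent of each other. In a moderated F test over the 3 groups, 0 members passed at an adjusted p under 0.05, against 0.102% of genes, and 0 passed unadjusted, against 6.26%. The lowest p of this F test among members was that of EGLN3 (limma adjusted p = 0.817). On the scaled values 2, 3 and 1 members passed unadjusted in the 3 comparisons, against 8.53%, 12.4% and 11.7% of all genes. In the F test 3 then passed unadjusted, against 12.1%.

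Of the oxygen-regulated subunits, HIF1A was lower in every HOPE heart than in every SCS heart. HIF1A (ENSSSCG00000005096) measured 121, 102 and 88.8 TPM in pigs 24, 25 and 29 of SCS 2 h. It measured 31.4, 73.1 and 83.5 TPM in pigs 27, 28 and 30 of HOPE 24 h, and 34.6, 67.3 and 86.4 TPM in pigs 31, 33 and 34 of HOPE 2 h. The 6 HOPE hearts lay below the 3 SCS hearts, with pig 34 and pig 29 nearest to each other, and the lowest values were those of pigs 27 and 31. The means were 104 ± 16.4 TPM (SD, n = 3) in SCS 2 h, 62.7 ± 27.6 in HOPE 24 h and 62.8 ± 26.2 in HOPE 2 h.

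The difference in HIF1A did not pass adjustment. HOPE 24 h against SCS 2 h gave a log2 fold change of -0.83 (SE 0.40, 95% interval -1.68 to 0.03, limma adjusted p = 0.993). HOPE 2 h against SCS 2 h gave -0.80 (SE 0.40, interval -1.66 to 0.05, limma adjusted p = 0.718). With both HOPE groups averaged, the difference from SCS was -0.81 (interval -1.55 to -0.08, limma adjusted p = 0.809). Of the 7 tested members, HIF1A was the 1 whose HOPE and SCS hearts did not overlap, against 2.78% of all genes. Leaving out pig 27 brought the first difference to -0.40, and leaving out pig 31 brought the second to -0.43. After median-of-ratios scaling the groups still did not overlap, at 83.8 to 114 in SCS and 43.2 to 80.8 in HOPE, and the averaged difference was -0.69 (limma adjusted p = 0.366). The 2 HOPE groups differed from each other by -0.02 on the log2 scale (interval -0.88 to 0.83), a sign that turned with that scaling (0.02).

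EPAS1 showed the same low hearts with a smaller fitted difference between groups. EPAS1 (ENSSSCG00000008443), prominent in endothelium, measured 251, 221 and 217 TPM in pigs 24, 25 and 29 of SCS 2 h. The values in pigs 27, 28 and 30 of HOPE 24 h were 123, 203 and 239 TPM, and those in pigs 31, 33 and 34 of HOPE 2 h were 121, 216 and 200 TPM. On these deposited values pigs 27 and 31 were far below the other 7 hearts. Pig 30 lay inside the SCS range, and pig 33 lay just below it. The log2 fold change from SCS 2 h was -0.33 (interval -0.99 to 0.32, limma adjusted p = 0.993) for HOPE 24 h and -0.40 (interval -1.05 to 0.26, limma adjusted p = 0.847) for HOPE 2 h, the latter without overlap. The first was -0.06 without pig 27 and -0.53 without pig 30, and the second was -0.14 without pig 31. Scaled, they were -0.19 and -0.30.

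On the deposited values the hearts lowest in HIF1A and EPAS1 were also lowest in endothelial markers. Summed endothelial TPM was 434 in pig 27 and 468 in pig 31, against 603 to 969 in the other hearts. These 2 hearts also had the lowest median-of-ratios factors, 0.728 and 0.771, and the marker sums were not scaled. Scaled EPAS1 was 169 and 156 in pigs 27 and 31, against 171 to 235 in the others. Scaled HIF1A was 43.2 and 44.9, against 63.0 to 114. By group the sum was 434 to 907 TPM in HOPE 24 h, 786 to 934 in SCS 2 h and 468 to 969 in HOPE 2 h. All 10 markers found were tested, none was at 0 in any heart, and 0 of 10 had a higher fitted mean in HOPE 24 h than in SCS 2 h and 2 of 10 in HOPE 2 h than in SCS 2 h, beside 35.9% and 42.3% of all genes tested. The part of endothelial content in the HIF1A and EPAS1 values was not tested.

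**Figure D2:**
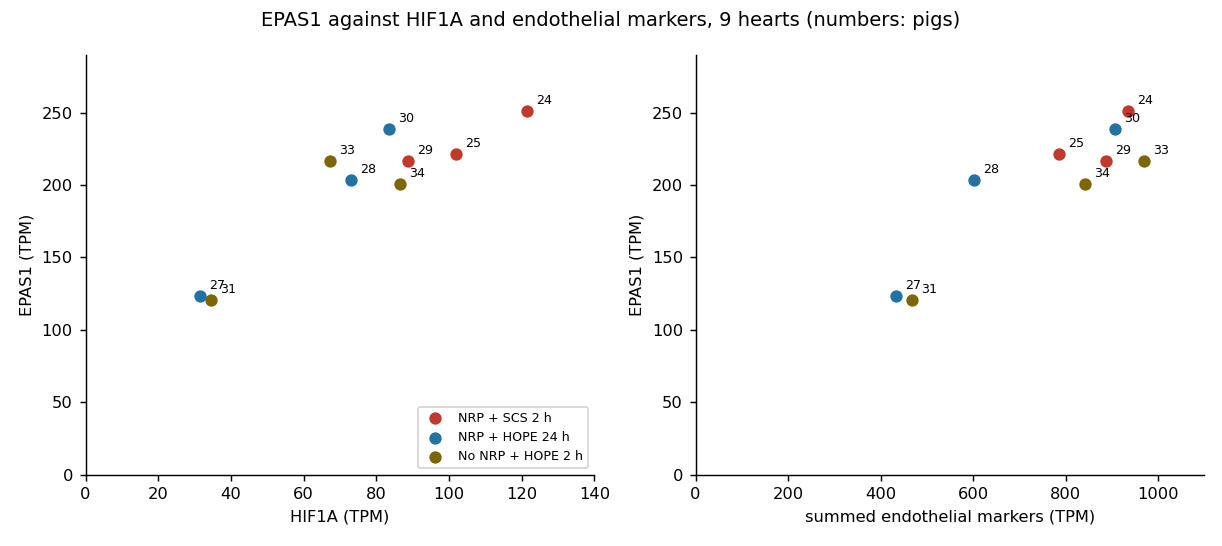
EPAS1 in TPM (vertical axes) against HIF1A in TPM (left) and against the summed TPM of 10 endothelial markers (right), 1 point per heart, coloured by group and marked with the pig number. All values are deposited TPM and are not scaled. Pigs 27 and 31 sit apart at the lower left of both panels, at 123 and 121 TPM of EPAS1.

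HIF1A and EPAS1 varied together between hearts. Over 9 hearts Pearson's r was 0.95 (exact permutation p = 0.00214, adjusted over 28 pairs of members p = 0.0599) and Spearman's rho was 0.78 (exact permutation p = 0.0172, adjusted p = 0.299). Without pigs 27 and 31 r was 0.62, so the size of the relation rests partly on those hearts. The deviations from group means gave r = 0.96, and the scaled values gave r = 0.85. VEGFA followed both less closely, with r = 0.77 for EPAS1 (exact permutation p = 0.0103, adjusted p = 0.145) and r = 0.71 for HIF1A (exact permutation p = 0.0317, adjusted p = 0.296). No pair passed adjustment, and 3 of 28 passed unadjusted. Of the 28 pairs 24 had a positive r before scaling and 12 after it, with medians of 0.18 and -0.12, so the sign of many relations changed with the common scale of each heart. Each of the 8 members had a negative r with the mitochondrial share, between -0.32 and -0.65, with adjusted exact permutation p-values of 0.217 to 0.397. Mitochondrial genes share the TPM total with the members. On the scaled values r was 0.03 for EPAS1, 0.24 for EGLN1 and 0.32 for ADM, and -0.12 to -0.27 for the other 5, so these signs held for 5 of 8 members.

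Of the hydroxylases, EGLN3 had the larger fitted differences between each HOPE group and SCS 2 h. EGLN3 (ENSSSCG00000001963) measured 3.52, 7.32 and 6.03 TPM in pigs 24, 25 and 29 of SCS 2 h. In HOPE 24 h it measured 6.79, 11.5 and 21.4 TPM in pigs 27, 28 and 30, and in HOPE 2 h it measured 7.97, 9.33 and 9.98 TPM in pigs 31, 33 and 34. Pig 30 was the highest and pig 24 the lowest heart, and of the HOPE hearts only pig 27 fell within the SCS range. The means were 5.62 ± 1.93 TPM (SD, n = 3), 13.2 ± 7.45 and 9.09 ± 1.03 in the same order.

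For EGLN3, HOPE 24 h against SCS 2 h gave a log2 fold change of 1.02 (SE 0.39, interval 0.18 to 1.85, limma adjusted p = 0.921). It was the 1 member past the unadjusted threshold in this comparison. HOPE 2 h against SCS 2 h gave 0.65 (interval -0.18 to 1.48, limma adjusted p = 0.802), without overlap. Both HOPE groups averaged gave 0.83 (interval 0.11 to 1.55, limma adjusted p = 0.782). Scaling pulled pig 27 out of the SCS range: the scaled values were 3.30 to 6.97 in SCS and 8.53 to 16.1 in HOPE. On that scale the averaged difference was 0.93 (limma adjusted p = 0.235). The first difference was 0.62 without pig 30 and 1.38 without pig 27, and the second was 0.40 without pig 24.

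**Figure D3:**
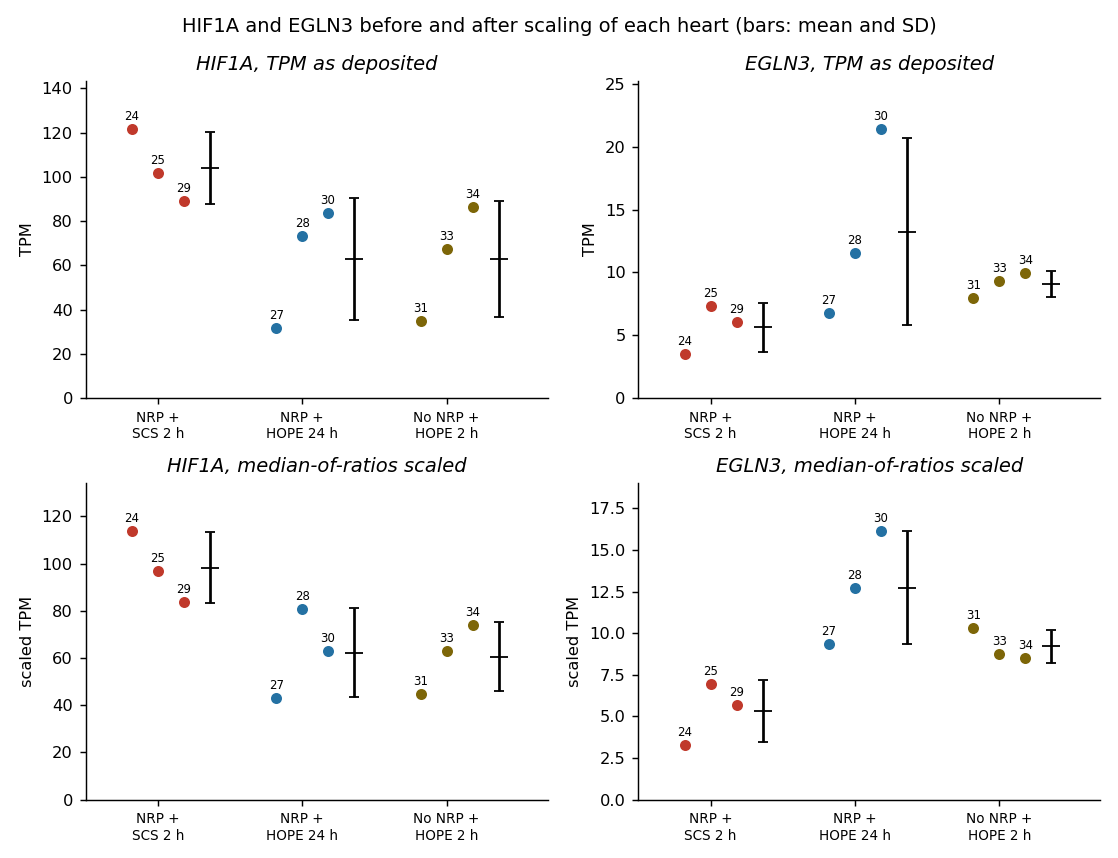
HIF1A (left) and EGLN3 (right) in each heart by group, as deposited TPM (top) and after division by the median-of-ratios factor (bottom), with pig numbers and the mean and SD of 3 hearts as black bars; all vertical axes start at 0. HIF1A was lower in each HOPE heart than in each SCS heart on both scales, and EGLN3 was higher in each HOPE heart on the scaled values, at 8.53 to 16.1 against 3.30 to 6.97.

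HIF1A and EGLN3 were the 2 members that passed an unadjusted p under 0.05 with both HOPE groups set against SCS, of 7 tested and against 5.87% of all genes. They lay in opposite directions, and neither was called, where 0.0424% of all genes were. By a two-sided exact permutation test of 6 hearts against 3, for which 0.0119 is the smallest possible p, EGLN3 reached p = 0.0476 and HIF1A p = 0.0714, before any correction for the 8 members. The other 6 members had exact permutation p-values of 0.143 to 0.75.

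EGLN1 (ENSSSCG00000010172), the main oxygen sensor of the pathway, measured 6.94, 6.38 and 11.2 TPM in pigs 24, 25 and 29 of SCS 2 h. HOPE 24 h had 6.79, 8.66 and 10.7 TPM in pigs 27, 28 and 30, and HOPE 2 h had 8.20, 9.80 and 13.4 TPM in pigs 31, 33 and 34. All groups overlapped. The log2 fold change from SCS 2 h was 0.10 (interval -0.59 to 0.79) for HOPE 24 h and 0.33 (interval -0.36 to 1.03) for HOPE 2 h, which leaves room for differences of either sign. The scaled values gave 0.23 and 0.42. Leaving out 1 heart moved the first from -0.04 (without pig 30) to 0.32 (without pig 29), and the second from 0.16 (without pig 34) to 0.56 (without pig 29).

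VEGFA, which encodes the vascular growth factor made under hypoxia, had its lowest mean without NRP. VEGFA (ENSSSCG00000001695) measured 24.6, 56.9 and 63.6 TPM in pigs 31, 33 and 34 of HOPE 2 h. With NRP it measured 54.7, 87.3 and 114 TPM in pigs 27, 28 and 30 of HOPE 24 h, and 100, 96.6 and 49.7 TPM in pigs 24, 25 and 29 of SCS 2 h. Of the 6 NRP hearts, 4 lay above every heart without NRP, and pigs 27 and 29 lay within that group's range. The means were 48.3 ± 20.8 TPM (SD, n = 3) without NRP, 85.2 ± 29.5 in HOPE 24 h and 82.2 ± 28.2 in SCS 2 h.

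Against both NRP groups averaged, VEGFA in HOPE 2 h differed by -0.83 on the log2 scale (interval -1.58 to -0.07, limma adjusted p = 0.694). It was 1 of 7 members past the unadjusted threshold there, against 6.92% of genes, and 0 members were called, against 0.0509%. The pairwise differences were 0.85 (interval -0.02 to 1.73, limma adjusted p = 0.835) for HOPE 24 h against HOPE 2 h and -0.80 (interval -1.67 to 0.08, limma adjusted p = 0.732) for HOPE 2 h against SCS 2 h. Leaving out pig 31 reduced these to 0.44 and -0.38. After scaling, the 3 HOPE 24 h hearts (75.2 to 96.5) lay above the 3 hearts without NRP (31.9 to 54.3), with a difference of 0.90 (limma adjusted p = 0.306). The 2 NRP groups differed by 0.06 (interval -0.82 to 0.93), from -0.27 without pig 29 to 0.34 without pig 27.

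ADM encodes adrenomedullin, a vasodilator peptide. ADM (ENSSSCG00000013408) measured 49.0, 57.7 and 54.9 TPM in pigs 27, 28 and 30 of HOPE 24 h, 39.7, 62.4 and 29.3 TPM in pigs 24, 25 and 29 of SCS 2 h, and 39.4, 43.5 and 55.2 TPM in pigs 31, 33 and 34 of HOPE 2 h. The SCS hearts held both the highest and the lowest value. The log2 fold change from SCS 2 h was 0.36 (interval -0.30 to 1.01) for HOPE 24 h and 0.12 (interval -0.53 to 0.78) for HOPE 2 h. The scaled values gave 0.50 and 0.22. Without pig 29 the differences were 0.11 and -0.13, and without pig 25 they were 0.64 and 0.41.

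BNIP3 encodes a mitochondrial protein of mitophagy and cell death. BNIP3 (ENSSSCG00000024388) measured 35.2, 18.9 and 60.9 TPM in pigs 27, 28 and 30 of HOPE 24 h, which included both the lowest and the highest heart. It measured 32.3, 44.4 and 33.5 TPM in pigs 24, 25 and 29 of SCS 2 h, and 36.3, 26.7 and 36.04 TPM in pigs 31, 33 and 34 of HOPE 2 h. From SCS 2 h the log2 fold change was -0.08 (interval -0.87 to 0.72) for HOPE 24 h, a sign that turned with scaling (0.07), and -0.15 (interval -0.94 to 0.65) for HOPE 2 h. The first was -0.48 without pig 30 and 0.34 without pig 28, and the second ranged from -0.23 to -0.01 over the hearts left out. With array weights the first was -0.61 and the second -0.36.

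ANKRD37 (ENSSSCG00000015798), a small ankyrin repeat gene induced by HIF-1, was the least abundant member. It measured 0.391, 0.908 and 3.73 TPM in pigs 31, 33 and 34 of HOPE 2 h, and 0.354 to 0.995 TPM in the 6 hearts of the other groups. Only pig 34 exceeded 1 TPM, and so the gene was not tested. Without the filter, HOPE 2 h against SCS 2 h gave 0.68 on the log2 scale (limma adjusted p = 0.847 over 17146 genes). That difference rests largely on pig 34.

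**Figure D4:**
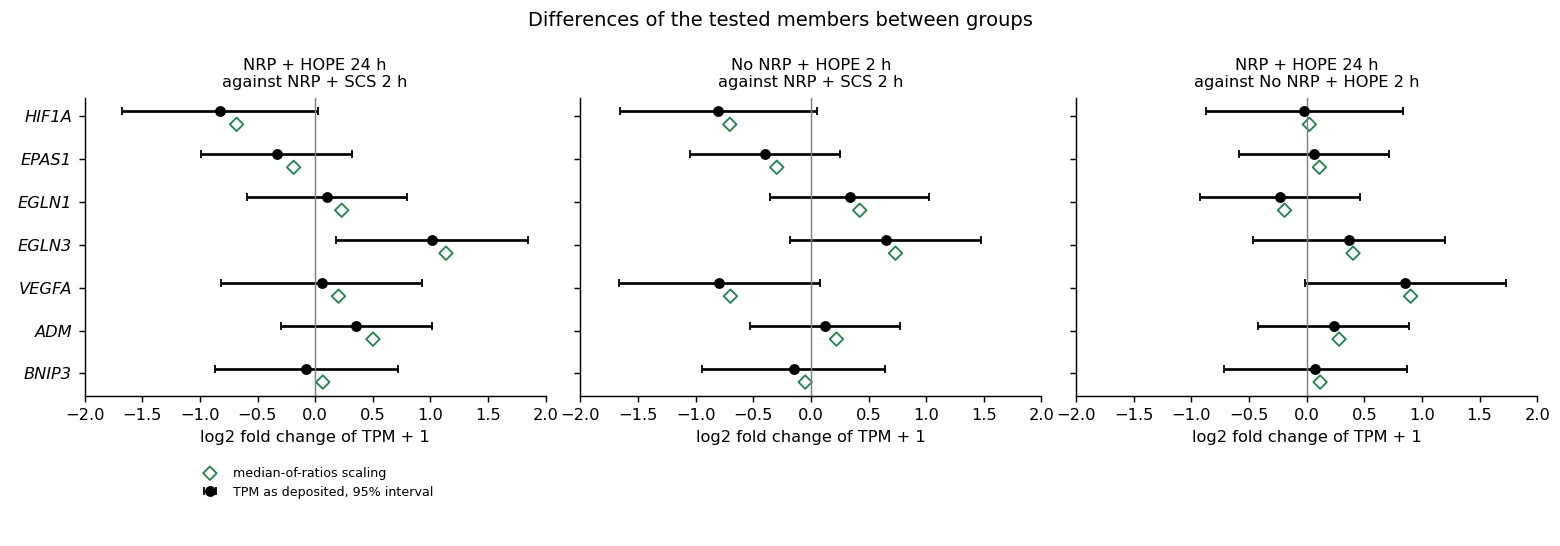
Log2 fold change of TPM + 1 (horizontal axes) of the 7 tested members in the 3 pairwise comparisons; black points with bars are the limma estimate and its 95% interval, and green diamonds the estimate after median-of-ratios scaling. The interval of EGLN3 in HOPE 24 h against SCS 2 h, 0.18 to 1.85, is the only 1 of 21 that leaves out 0.

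The overlap of hearts was counted in the same way for members and for all genes tested. In HOPE 24 h against SCS 2 h, 1 of 7 tested members (HIF1A) did not overlap, against 9.82% of genes. In HOPE 2 h against SCS 2 h, 3 of 7 (HIF1A and EPAS1 lower, EGLN3 higher) did not overlap, against 14.7%. Summed fibroblast markers did not overlap either, at 1126 to 1241 TPM in HOPE 2 h and 749 to 1068 TPM in SCS 2 h as deposited. Of the 8 tested fibroblast markers, 5 had a higher fitted mean in HOPE 2 h, beside 42.3% of all genes. In HOPE 24 h against HOPE 2 h 0 of 7 did not overlap, against 7.48%, and with No NRP set against both NRP groups 0 of 7, against 2.35%. Smooth muscle and pericyte markers summed to 439 to 492 TPM in HOPE 2 h and 227 to 425 TPM in HOPE 24 h, without overlap. Of the 6 tested, 2 had a higher fitted mean in HOPE 24 h, beside 46.1% of all genes. These fibroblast and smooth muscle sums were not scaled, and the groups may overlap on the scaled values. Summed erythroid markers, described below, also separated HOPE 2 h, at 226 to 379 TPM, from SCS 2 h, at 72.3 to 136 TPM. The part of these cell types and of residual blood in the members' values was not tested. Over all genes tested, the median log2 fold change stood at -0.12, -0.07 and -0.03 in the 3 pairwise comparisons, and over the 7 tested members at 0.06, -0.15 and 0.07. Scaling moved the median of all genes in the first comparison by 0.12, and the share of genes with a positive difference from 35.9% to 50.02%.

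The rest of the pathway was followed in 4 lists of 88 genes, of which 69 were listed and 60 tested: HIF machinery (11 tested), glycolysis (19), vessels and blood (8), and cell survival, matrix and feedback (22). In all 5 comparisons 0 of the 60 were called by limma. At an unadjusted p under 0.05, 2 were higher and 3 lower in HOPE 24 h against SCS 2 h, 2 were higher and 2 lower in HOPE 2 h against SCS 2 h, and 1 was higher and 2 lower in HOPE 24 h against HOPE 2 h. These are 8.33%, 6.67% and 5.0% of the 60, beside 4.97%, 7.22% and 6.01% of all genes. With both HOPE groups set against SCS 1 was higher and 3 were lower, 6.67% of the 60 beside 5.87% of all genes. With No NRP set against both NRP groups 0 passed unadjusted, beside 6.92% of all genes. These counts depended on scaling. On the scaled values 10, 5 and 5 of the 60 passed in the 3 pairwise comparisons, beside 8.53%, 12.4% and 11.7% of all genes, 11 passed with HOPE set against SCS, beside 9.99%, and 6 with No NRP set against NRP, beside 13.1%. Still 0 were called. Single hearts moved the counts too. In HOPE 24 h against SCS 2 h 9 passed without pig 30 (beside 10.7% of all genes) and 3 without pig 28 (3.21%).

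The strongest difference in the lists was that of ANGPTL4, which encodes an inhibitor of lipoprotein lipase and is a target of both HIF and PPAR factors. ANGPTL4 measured 232, 184 and 244 TPM in pigs 27, 28 and 30 of HOPE 24 h. It measured 107, 93.2 and 34.3 TPM in pigs 24, 25 and 29 of SCS 2 h, and 127, 126 and 123 TPM in pigs 31, 33 and 34 of HOPE 2 h. The 3 groups did not overlap and stood in the order HOPE 24 h, HOPE 2 h, SCS 2 h. The log2 fold change of HOPE 24 h was 1.63 against SCS 2 h (SE 0.36, limma adjusted p = 0.208) and 0.79 against HOPE 2 h (limma adjusted p = 0.826), and HOPE 2 h exceeded SCS 2 h by 0.83 (limma adjusted p = 0.663). Pig 29 was far below the other SCS hearts, and without it the first difference was 1.12 (limma adjusted p = 0.504) and the difference of HOPE 2 h from SCS 2 h was 0.33 (limma adjusted p = 0.925). On the scaled values the 3 differences were 1.77, 0.84 and 0.93.

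In the glycolysis list, HK2 and ENO2 were lower and PFKFB3 higher in HOPE 24 h against SCS 2 h at an unadjusted p under 0.05, and none of them passed adjustment. HK2, the inducible hexokinase, measured 4.93, 8.69 and 10.8 TPM in pigs 27, 28 and 30, and 12.6, 21.8 and 17.1 TPM in pigs 24, 25 and 29, without overlap (log2 fold change -1.02, limma adjusted p = 0.918). PFKFB3, which makes the activator of phosphofructokinase, measured 27.2, 34.9 and 48.0 TPM against 23.8, 27.0 and 7.20 TPM in the same pigs, higher without overlap, though pigs 27 and 25 nearly met (1.04, limma adjusted p = 0.965). Pig 29 was far below the other SCS hearts, and without it the PFKFB3 difference was 0.48. ENO2, an enolase at low level, averaged 0.717 TPM against 2.33 TPM (-0.94, limma adjusted p = 0.849). In HOPE 2 h, PPP1R3C, which targets a phosphatase to glycogen, averaged 51.0 TPM against 89.5 TPM in SCS (-0.78, limma adjusted p = 0.622), and ENO2 averaged 0.906 TPM (-0.82, limma adjusted p = 0.63). Scaled, the differences of HK2 and ENO2 in HOPE 24 h were -0.89 and -0.83, and those of PPP1R3C and ENO2 in HOPE 2 h were -0.68 and -0.77. PFKFB3 was higher in HOPE 24 h on that scale too. The list median was -0.07, -0.22 and 0.01 in the 3 pairwise comparisons, and the first of these turned to 0.08 with scaling.

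In the list of vessels and blood, 1 of 8 tested genes was higher in HOPE 24 h than in SCS 2 h before scaling and 2 after it, beside 35.9% and 50.02% of all genes, with ANGPTL4 higher before scaling, and ANGPTL4 (1.77) and TFRC, the transferrin receptor gene (0.04), after it. NOS3, the endothelial nitric oxide synthase, measured 23.1, 27.3 and 48.2 TPM in pigs 27, 28 and 30 against 74.5, 50.9 and 54.7 TPM in pigs 24, 25 and 29 (-0.90, limma adjusted p = 0.849). Against HOPE 2 h the NOS3 difference was -0.72 (limma adjusted p = 0.826). APLN, which encodes the peptide apelin, averaged 1.97 TPM in HOPE 24 h and 6.85 TPM in HOPE 2 h (-1.26, limma adjusted p = 0.795), where pig 34 alone had 13.6 TPM. The APLN difference was -0.66 without pig 34 and -0.77 without pig 27. After scaling the NOS3 differences were -0.76 and -0.68, and that of APLN was -1.26. KDR, the main VEGF receptor, averaged 72.8, 91.3 and 65.7 TPM in HOPE 24 h, SCS 2 h and HOPE 2 h, with its lowest values in pigs 27 (32.8 TPM) and 31 (33.1 TPM). NOS3 and KDR are expressed in endothelium, whose summed markers are given above. KDR is itself 1 of the 10 markers in that sum, so the 2 are not independent. The part of endothelial content in these values was not tested.

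Of the machinery, 0 of 11 tested genes passed an unadjusted p under 0.05 in a pairwise comparison by limma on the deposited values. Of all genes, 4.97%, 7.22% and 6.01% passed in these 3 comparisons. On the scaled values 1 passed in HOPE 24 h against SCS 2 h (CITED2), 0 in HOPE 2 h against SCS 2 h, and 2 in HOPE 24 h against HOPE 2 h (CITED2 and ELOC, a subunit of the von Hippel-Lindau ligase). These are 9.09%, 0% and 18.2% of the 11, beside 8.53%, 12.4% and 11.7% of all genes. CITED2, which competes with HIF for its coactivators, measured 21.4, 54.4 and 68.2 TPM in pigs 27, 28 and 30 and 22.5 to 29.3 TPM in the other 6 hearts (0.68 against SCS 2 h, limma adjusted p = 0.993, and 0.82 scaled). The CITED2 difference from SCS 2 h was 0.36 without pig 30 and 1.17 without pig 27. EGLN2, the third prolyl hydroxylase, averaged 25.0, 32.9 and 22.9 TPM in HOPE 24 h, SCS 2 h and HOPE 2 h. HIF3A stayed at 1.38 TPM or less in every heart.

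In the list of survival, matrix and feedback, 1 of 22 tested genes (STC1) passed unadjusted on the deposited values, in HOPE 2 h against SCS 2 h. Of all genes, 7.22% passed there. On the scaled values 4 passed in HOPE 24 h against SCS 2 h (PMAIP1, BHLHE41, ERO1A and STC1), 2 in HOPE 2 h against SCS 2 h (STC1 and STC2) and 0 in HOPE 24 h against HOPE 2 h. These are 18.2%, 9.09% and 0% of the 22, beside 8.53%, 12.4% and 11.7% of all genes. STC1, a secreted glycoprotein, averaged 39.1 TPM against 22.5 TPM (0.72, limma adjusted p = 0.684), with overlap. Without pig 34, its highest heart, the STC1 difference was 0.45. PMAIP1, the cell death gene also called NOXA, measured 18.4, 56.0 and 20.2 TPM in pigs 27, 28 and 30 and 11.0 to 18.4 TPM in the SCS hearts (0.87, limma adjusted p = 0.993), with pig 28 alone well above the rest. Without pig 28 the PMAIP1 difference was 0.37. ERO1A, an oxidase of protein folding, averaged 7.38 TPM in HOPE 24 h against 12.02 TPM in SCS 2 h (-0.67, limma adjusted p = 0.993), and the difference was -0.43 without pig 27. The list median was 0.02, 0.16 and -0.08 in the 3 pairwise comparisons and 0.14, 0.25 and -0.05 after scaling, with 12 of 22 genes higher in the first comparison before scaling and 18 after it, beside 35.9% and 50.02% of all genes.

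**Figure D5:**
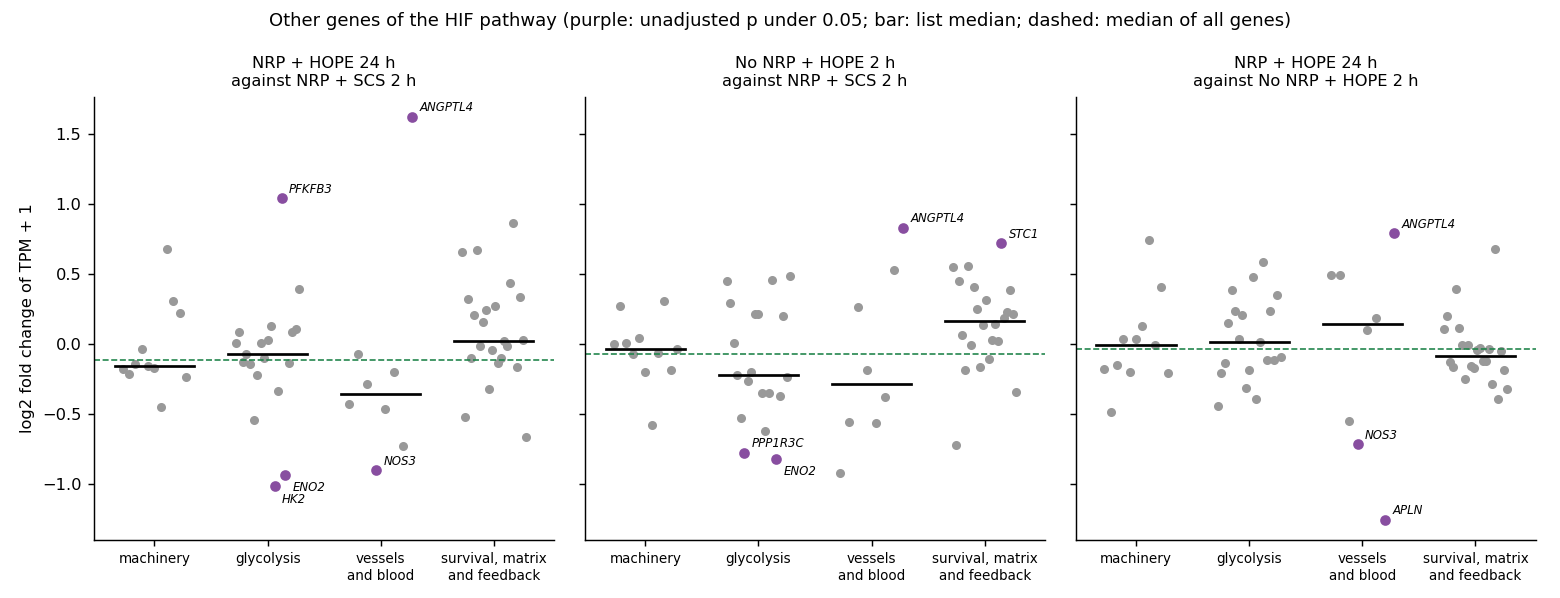
Log2 fold change of TPM + 1 (vertical axis) of the 60 tested genes of the 4 further HIF pathway lists in the 3 pairwise comparisons, 1 point per gene; purple points passed an unadjusted p under 0.05, black bars are list medians and dashed green lines the median of all genes. ANGPTL4 stands highest in each panel, at 1.63, 0.83 and 0.79.

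The mean of the 8 standardised members was highest in pig 30 (0.94) and pig 34 (0.72) and lowest in pig 31 (-0.87) and pig 27 (-0.59), hearts that also had the 2 highest and the 2 lowest median-of-ratios factors. Over the 9 hearts, the genes outside the lists most like that mean were CTSC (r = 0.98), RTRAF (r = 0.97), DAP3 (r = 0.97), MAPT (r = 0.96) and SETD1B (r = 0.96), the highest among the tested genes with a symbol.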

How the data were processed

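RNA sequencing of apex myocardium was analysed for 9 hearts in 3 groups of 3, grouped by the sample labels. According to the methods, the authors selected polyadenylated RNA, sequenced paired ends, and used bcl2fastq 2.17, Trimmomatic 0.36, STAR 2.5.2b, featureCounts from Subread 1.5.2 and DESeq2. The authors deposited TPM, and each column sums to 1000000. The genome build is not given in the sources used here. TPM keep no depth, so no counting interval is given. A further 9 columns tied to no sample were not used. The table lists 0 spike-in rows.

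Because TPM are no read counts, log2(TPM + 1) was fitted with limma 3.58.1 (R 4.3.3), using a single model of all 9 hearts with a mean for each group, and eBayes with trend. A gene was tested where 3 or more hearts reached 1 TPM, and p-values were adjusted within each of 5 comparisons. Fold changes are on the log2(TPM + 1) scale, which understates low genes. Each heart is 1 pig. Symbols missing from the table were sought by identifier in a gene name table. Correlations across hearts used exact permutation of 9 hearts on log2(TPM + 1). The script was tested on simulated data.

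The members and lists were chosen with earlier results of these data known. All members were named, and from each further list the 4 tested genes with the largest absolute difference in each pairwise comparison were eligible. As alternatives, the pseudocount was set to 0.1, the filter dropped or replaced by a mean of 5 TPM, values were scaled by median-of-ratios or by quantiles or without mitochondrial genes, and the fit used other eBayes settings, array weights, the hearts of the compared groups alone, or each set of hearts lacking 1.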

Additional observations from a re-analysis of the deposited data

How the results depend on the processing

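In each of the 5 comparisons and in the F test, 0 members were called under every alternative run, so that leaving out each heart gave 0 to 0. Over 21 member differences and 399 alternatives, 375 kept their direction. With array weights the sign turned for VEGFA (-0.016) in HOPE 24 h against SCS 2 h, for ADM (-0.019) in HOPE 2 h against SCS 2 h, and for EPAS1 (-0.082) and BNIP3 (-0.26) in HOPE 24 h against HOPE 2 h. Median-of-ratios scaling turned BNIP3 (0.067) against SCS and HIF1A (0.023) between HOPE groups, and quantile normalization turned BNIP3 (0.048) against SCS. Leaving out single hearts turned EGLN1 (-0.044 to 0.32), VEGFA (-0.27 to 0.34) and BNIP3 (-0.48 to 0.34) in HOPE 24 h against SCS 2 h, and ADM (-0.13 to 0.41) in HOPE 2 h against SCS 2 h. It also turned HIF1A (-0.39 to 0.41), EPAS1 (-0.20 to 0.34), EGLN3 (-0.026 to 0.74) and BNIP3 (-0.33 to 0.49) between the HOPE groups. The cause was not tested.

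The number of members at an unadjusted p under 0.05 depended on scaling. It was 1, 0 and 0 in the 3 pairwise comparisons as deposited. Median-of-ratios gave 2, 3 and 1, beside a rise in the share of all genes to 8.53%, 12.4% and 11.7%. Quantiles gave 2, 4 and 1 (8.5%, 12.3% and 11.4% of all genes), and leaving out mitochondrial genes 2, 2 and 1 (8.16%, 11.1% and 9.12%). Array weights gave 2 in each comparison with SCS (15.4% and 15.8%), and the fit of the compared hearts alone 2 and 1 (5.49% and 9.18%). The F test count was 0 as deposited, 3 under each of the 3 scalings, and 1 with array weights, while the share of all genes went from 6.26% to between 10.3% and 17.4%. Without the filter, No NRP against NRP gave 0 in place of 1 (5.95% of all genes). Leaving out single hearts gave 0 to 2 in each comparison with SCS and in the F test, and 0 to 1 in the others. The share of all genes then ran from 3.21% to 10.7% for HOPE 24 h, 4.12% to 9.43% for HOPE 2 h and 3.28% to 10.3% for both, each against SCS. It ran from 4.68% to 10.4% in the F test, 4.12% to 9.49% between the HOPE groups and 5.12% to 9.64% for No NRP against NRP. The lowest adjusted p of a pairwise member difference was 0.221, that of EGLN3 in HOPE 24 h against SCS 2 h. Of the 60 further pathway genes, 0 were called under any alternative, and 5, 4 and 3 passed unadjusted as deposited, 11, 6 and 4 with quantiles, 7, 6 and 6 without mitochondrial genes and 11, 6 and 4 with array weights (15.9% of all genes in the third comparison), beside the shares of all genes above. No NRP against NRP gave 0 as deposited (6.92% of all genes), 6 with quantiles (13.2%), 4 without mitochondrial genes (10.4%) and 3 with array weights (16.1%). HOPE against SCS gave 4, 11, 8 and 11 (5.87%, 10.1%, 9.97% and 15.4%). Leaving out single hearts gave 3 to 9 in HOPE 24 h against SCS 2 h, with 3 without pig 28 (3.21% of all genes) and 9 without pig 30 (10.7%). HOPE 2 h against SCS 2 h ranged from 1 to 6, with 1 without pig 29 or 31 (6.76% and 7.17% of all genes). It was 2 without pig 25 or 34 (5.27% and 7.02%). HOPE 24 h against HOPE 2 h ranged from 1 to 5, with 1 without pig 31, 33 or 34 (8.76%, 5.95% and 4.93%). It was 5 without pig 30 (9.49%). HOPE against SCS ranged from 3 to 8, with 8 without pig 30 (10.3%). No NRP against NRP ranged from 0 to 6, with 6 without pig 27 (9.64%). It was 2 without pig 30 or 31 (8.45% and 8.42%) and 1 without pig 29 (7.15%). Over all genes, 3, 6 and 6 were called in the pairwise comparisons, and with array weights 60, 94 and 14. Over the other alternatives the counts ran from 0 to 13, 1 to 20 and 0 to 16. No paired analysis was possible because each pig number occurs in 1 group only. Depth is unknown, so the precision rests on 3 hearts per group.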

Other observations

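Ratios of members within a heart do not depend on the common scale of that heart. The ratios here were chosen after the values were seen, and are given as values with no test. EGLN3 over HIF1A, in TPM, was 0.029, 0.0719 and 0.0679 in pigs 24, 25 and 29 of SCS 2 h, 0.216, 0.158 and 0.256 in pigs 27, 28 and 30 of HOPE 24 h, and 0.230, 0.139 and 0.115 in pigs 31, 33 and 34 of HOPE 2 h. All 6 HOPE hearts lay above all 3 SCS hearts. VEGFA over HIF1A was 1.74, 1.19 and 1.36 in pigs 27, 28 and 30 of HOPE 24 h and 0.559 to 0.948 in the 6 other hearts, which all lay below. EPAS1 over HIF1A was 2.07 to 2.44 in the 3 hearts of SCS 2 h, 3.92, 2.78 and 2.85 in HOPE 24 h, and 3.48, 3.22 and 2.32 in HOPE 2 h, where pig 34 overlapped the SCS hearts. EGLN3 over EGLN1 was 1.0, 1.33 and 2.00 in pigs 27, 28 and 30, and between 0.508 and 1.15 in the 6 other hearts, with pig 25 of SCS 2 h above pig 27.

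HBB, the beta chain of hemoglobin, was the main erythroid marker found. Summed over 4 erythroid markers, TPM was 72.3 to 136 in SCS 2 h, 226 to 379 in HOPE 2 h and 74.1 to 430 in HOPE 24 h, where pig 27 alone lay in the SCS range. The HOPE perfusate held red cells, and the part of residual blood in the members' values was not tested. Neutrophil markers summed to 1.19 to 16.1 TPM and macrophage markers to 66.1 to 223 TPM, with overlapping groups.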
